A study of Mus musculus with 6 samples.

Results

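Potassium channel genes were followed in RNA sequencing counts from whole mouse hearts of 2 Na/K-ATPase genotypes. Members were the protein-coding genes of the count table whose symbol starts with Kcn, 94 of the 54532 genes listed. Of these, 51 reached at least 10 counts in 3 or more of the 6 hearts and are described below, and 43 did not. The minimum was reached in every heart by 41 of the 51 and in 3 to 5 hearts by the other 10, and none passed it through exactly the 3 hearts of 1 genotype. Just inside it stood Kcnj4, with 4, 7 and 11 counts in one genotype and 15, 7 and 13 in the other, and just outside it stood Kcnip1, with 5, 10 and 3 counts and 3, 1 and 18.

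The hearts came from male mice of 3 months on a C57BL/6 background. The α1r/rα2s/s mice (mice 368, 369 and 370) had the α1 subunit of Na/K-ATPase that is naturally resistant to cardiotonic steroids such as ouabain, and the α1s/sα2s/s mice (mice 379, 380 and 381) had an α1 subunit made sensitive by a pair of amino-acid substitutions. All 6 mice carried the sensitive α2 subunit. The substitution is present in every tissue of the mouse, so no cell type is singled out by the model, and each library was 1 whole heart with atria, ventricles, vessels and nerves together.

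Potassium channels carry the outward currents that bring the membrane of a heart muscle cell back to rest after each action potential and hold it there between beats. Voltage-gated (Kv) channels open on depolarization, inward rectifiers (Kir) set the resting potential or respond to ATP and G proteins, K2P channels leak at all voltages, and the KCa and KNa channels open with intracellular calcium or sodium. The Na/K-ATPase pumps back the potassium that all of these let out. In the mouse ventricle repolarization rests mainly on the transient outward current of Kv4 channels and on delayed rectifiers of the Kv1 and Kv2 families.

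The 6 libraries held between 19309312 and 20470065 counts, of which the 51 genes took 0.125 to 0.127% in α1r/rα2s/s and 0.113 to 0.119% in α1s/sα2s/s hearts. Levels below are in CPM, the counts of a gene per 1000000 counts of a library size scaled by edgeR's TMM factors, and on that scale the 51 genes summed to 1225 ± 40.4 CPM (SD, n = 3) in α1r/rα2s/s and 1188 ± 38.3 CPM in α1s/sα2s/s hearts, ranges that overlapped. Hemoglobin transcripts ranged from 370.5 to 3055 CPM of the unscaled totals and were highest in mouse 380.

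Potassium channel transcripts in these hearts were dominated by a few genes. Between genes, levels were compared as CPM per kilobase of the gene model, a scale on which all 51 together reached 298 ± 10.8 in α1r/rα2s/s and 290 ± 8.55 in α1s/sα2s/s hearts. Kcnk3, which encodes the acid-sensitive leak channel TASK1, was the most abundant at a mean of 60.2 over the 6 hearts, above every other member in each heart. Kcnip2, the KChIP2 subunit of Kv4 channels, followed at 37.0, then Kcng2, a silent Kv subunit that forms channels only together with Kv2 proteins, at 35.0, and Kcnj11, the pore of the ATP-sensitive channel, at 34.8. Over all 6 hearts those 3 genes could not be ordered among themselves, since their ranges overlapped. Within genotypes, Kcng2 was the lowest of the 3 in every α1r/rα2s/s heart and the highest in every α1s/sα2s/s heart. The next step down had no overlap and led to the G-protein-gated subunit Kcnj5 at 15.6, after which Kcnj8, Kcnh2, Kcnj2 and Kcnj3 lay between 14.4 and 11.7 and overlapped from neighbour to neighbour. A further gap separated Kcnj3 from Kcna5 (8.05), and the last clear gap lay between Kcnd2 (5.69) and Kcnv2 (3.86). The 5 most abundant genes made up 62.0% and the 10 most abundant 81.8% of the summed level, 24 genes stood at 1 or more CPM per kilobase, and the other 27 below it.

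**Figure D1:**
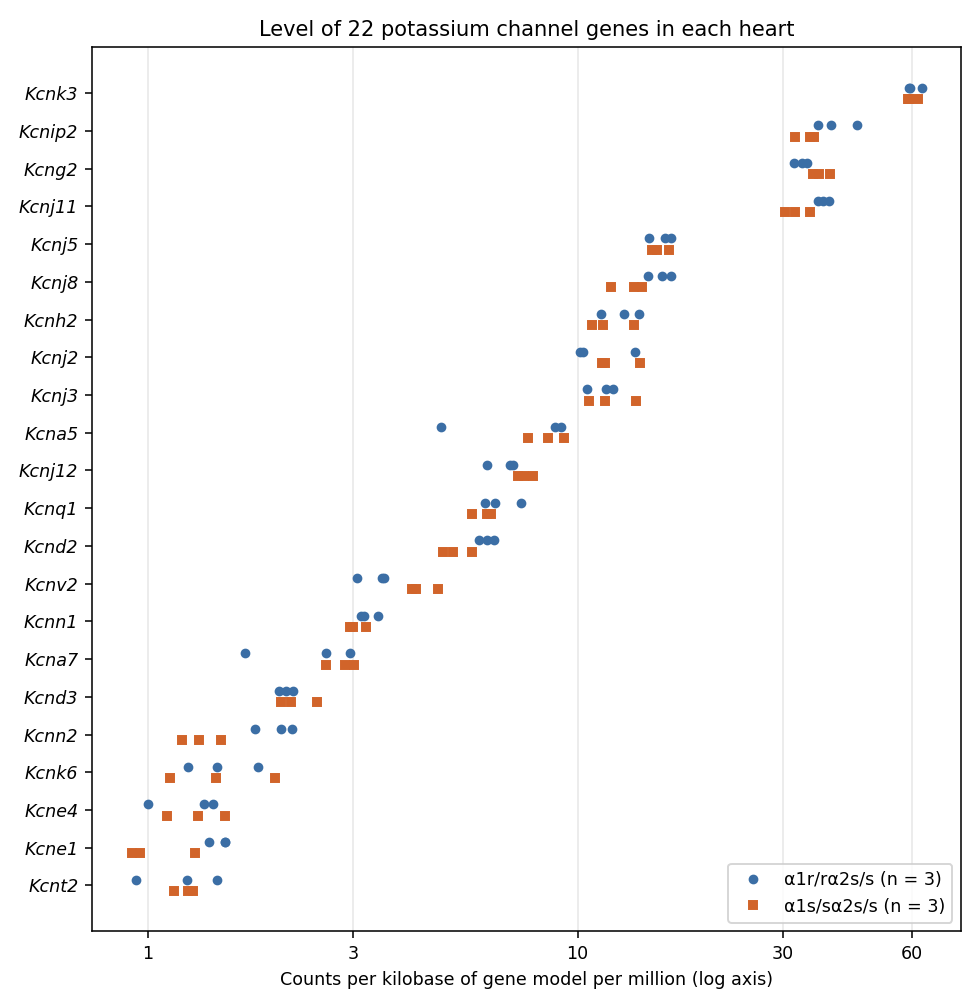
Level of 22 of the potassium channel genes with a mean of at least 1 CPM per kilobase of gene model (log axis), 1 point per heart, for α1r/rα2s/s (blue circles, n = 3) and α1s/sα2s/s hearts (orange squares, n = 3). Kcnk3 stands above all others at 60.2, the genotypes overlap for most genes, and mouse 368 is the low circle of Kcna5.

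The log2 fold changes of the family were centred near 0. In the quasi-likelihood test of edgeR, with p-values adjusted after Benjamini and Hochberg over all 14866 genes tested, 1 of the 51 members passed an adjusted p of 0.05, which is 1.96% of members against 1.44% of all genes tested. That gene was Kcnn2, which fell in α1s/sα2s/s hearts, where 0.659% of all genes were called lower. No member was called higher by DESeq2, which gave no adjusted p for many of the scarcer members. None was called higher by edgeR, where 0.78% of all genes were. By edgeR 6 members had an unadjusted p under 0.05 in that direction. At an unadjusted p under 0.05 in the same fit there were 12 members, 23.5% against 14.5% of all genes, 6 of them higher and 6 lower, 11.8% of members each against 7.19% and 7.27% of all genes. The values of the 2 genotypes did not overlap for 14 members, 27.5% against 20.0% of all genes, with 7 or 13.7% in each direction against 10% of all genes higher and 9.98% lower. The median log2 fold change of α1s/sα2s/s over α1r/rα2s/s hearts was 0.02 over the members and -0.01 over all genes tested, 27 members were above 0 and 24 below, and the members ranged from -0.73 to 1.17. With 3 hearts against 3 an exact permutation test of 1 gene cannot give a two-sided p below 0.1, so the tests rest on the spread edgeR pools over genes. The p-values describe the spread between these hearts, and in whole-heart RNA a smaller number of cells of a type and less RNA per cell cannot be told apart.

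**Figure D2:**
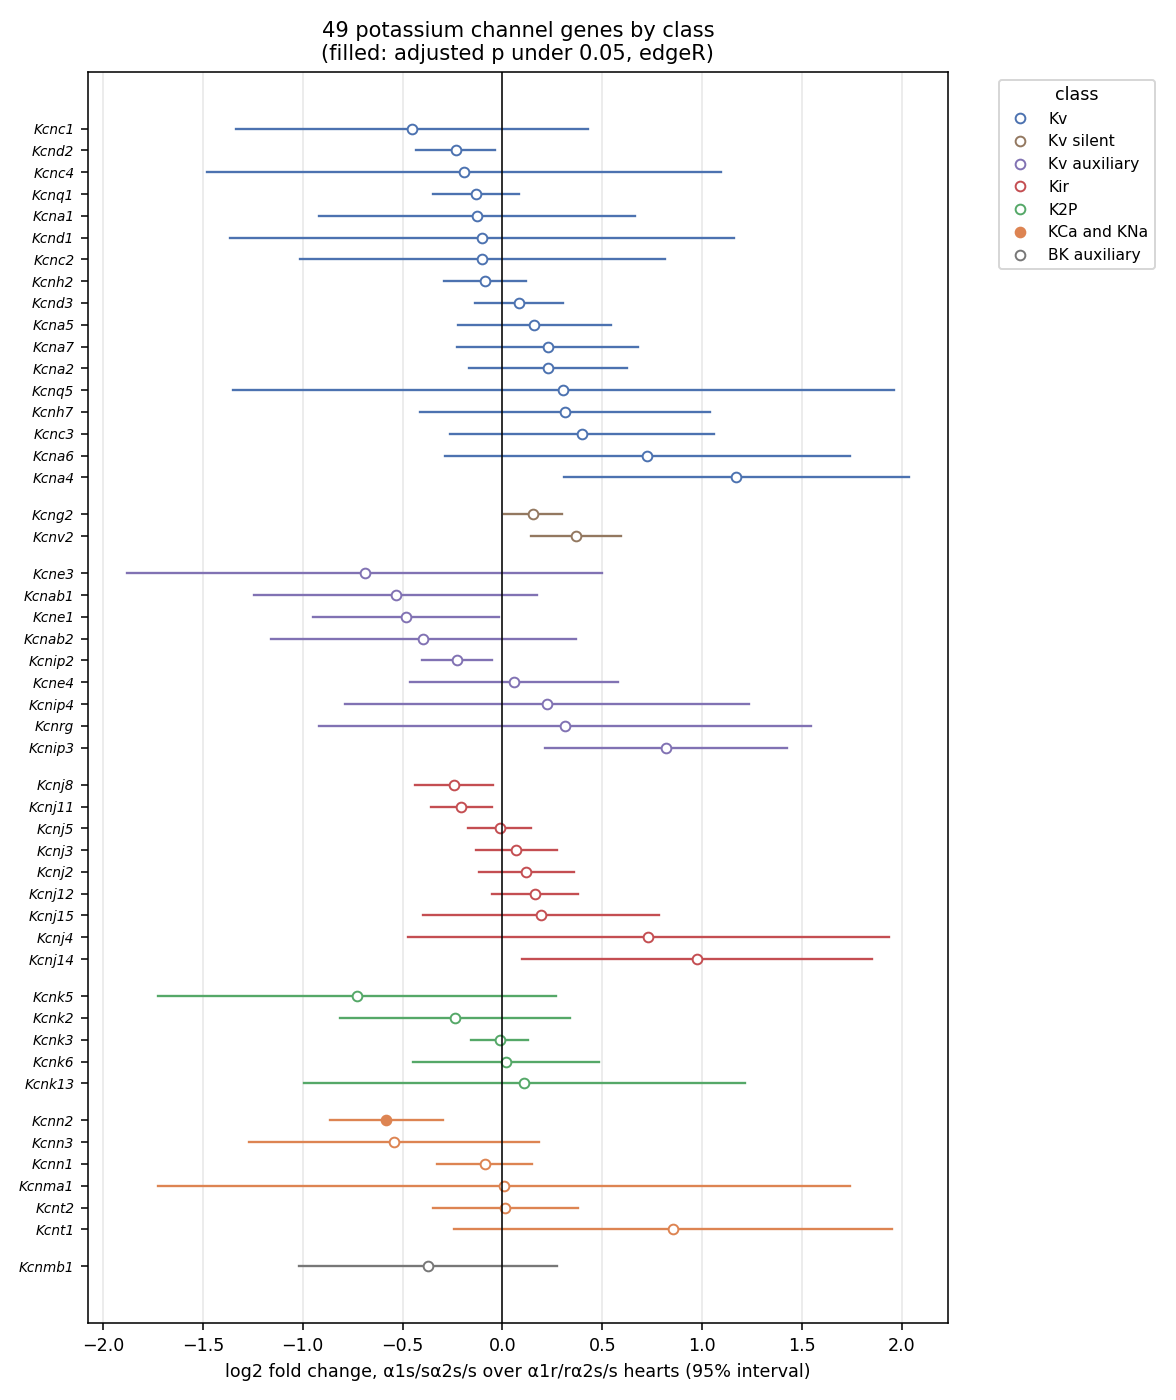
Log2 fold change (α1s/sα2s/s over α1r/rα2s/s hearts) of 49 potassium channel genes from edgeR, ordered within classes, with lines for the 95% interval and a filled point for an adjusted p under 0.05. Kcnn2 is the filled point at -0.58, and the intervals widen from -0.16 to 0.13 for the abundant Kcnk3 to -1.72 to 1.74 for the scarce Kcnma1.

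Precision followed abundance. The median coefficient of variation between hearts of 1 genotype was 7.69% in α1r/rα2s/s and 8.24% in α1s/sα2s/s hearts for the 24 members at 1 or more CPM per kilobase, and 28.5% and 28.9% for the 27 scarcer ones. For 17 members the whole 95% interval of the log2 fold change lay within 0.5 on either side of 0. Exon bases were shared with another listed gene by 20 of the 51, and the sources used here do not give whether strand was used in counting, so reads there cannot be told apart. For 14 of the 20 the other gene stayed under 30 counts in every heart.

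Calcium-activated potassium channels held the 1 gene that passed the test. Kcnn2 encodes SK2, a small-conductance channel that opens on calcium bound to calmodulin and is known in the mouse heart mainly from the atria and the pacemaker and conduction tissue. The gene lies at chr18:45268860-45686024 (GRCm38). It had 313, 272 and 316 counts in the α1r/rα2s/s hearts and 218, 183 and 170 in the α1s/sα2s/s hearts. Every α1s/sα2s/s heart was below every α1r/rα2s/s heart. The level fell from 14.6 ± 1.47 to 9.76 ± 1.01 CPM (SD, n = 3 each), a change of -33.1%. The log2 fold change was -0.58 (SE 0.13, 95% interval -0.86 to -0.30) with a Benjamini-Hochberg adjusted p of 0.043 in edgeR's quasi-likelihood test. The call needed all 6 hearts. In edgeR's fits without 1 heart the adjusted p was 0.157 without mouse 368, 0.055 without 369, 0.116 without 370, 0.0583 without 379, 0.118 without 380 and 0.148 without 381, while the log2 fold change stayed between -0.66 and -0.51. An antisense gene, A330093E20Rik, shares 284 exon bases with Kcnn2 but had at most 9 counts in any heart.

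The other SK genes were scarcer or closer between genotypes. Kcnn1 (SK1) had 330, 306 and 286 counts against 297, 262 and 261, with 1 α1s/sα2s/s heart inside the α1r/rα2s/s range after scaling, and its log2 fold change was -0.09 (95% interval -0.33 to 0.15). Kcnn3 (SK3) had 47, 67 and 34 counts against 43, 28 and 25, and its log2 fold change of -0.54 carried an interval from -1.27 to 0.18 that included 0. Kcnn4 reached at most 19 counts and was below the minimum. Per kilobase, Kcnn1 was 1.64 ± 0.179 times Kcnn2 in α1r/rα2s/s and 2.30 ± 0.139 times in α1s/sα2s/s hearts, with no overlap. Kcnma1, the pore of the large-conductance BK channel, was at 15, 2 and 13 counts against 24, 1 and 4, so its fold change could not be determined at this depth. Kcnmb1, the BK β1 subunit of smooth muscle, had a log2 fold change of -0.37 with an interval from -1.02 to 0.27. The 8 smooth muscle markers had a median log2 fold change of -0.10, with 6 of the 8 negative, and summed to 1463 to 1789 CPM in α1r/rα2s/s and 1811 to 2027 CPM in α1s/sα2s/s hearts. That sum is made up largely of Des (1319.7 and 1633 CPM, log2 fold change 0.31), which heart muscle also expresses. The lowest log2 fold changes in the list were those of Cnn1 (-0.58) and Acta2 (-0.45), both with overlap between genotypes. Tagln had -0.33, Lmod1 -0.11, Myh11 -0.10, Mylk -0.04 and Smtn 0.02. The part of these markers in the Kcnmb1 values was not tested.

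Markers of atrial muscle were given beside Kcnn2 because that tissue is part of a whole heart. All 12 atrial markers listed were tested, 0 passed edgeR's adjusted p of 0.05 and 1 passed DESeq2's. By edgeR 6 had an unadjusted p under 0.05, 50% of the list against 14.5% of all genes. Of the 6, 5 were lower in α1s/sα2s/s hearts, 41.7% of the list against 7.27% of all genes. The list was chosen with earlier results of these data known, so its counts are a description. Of the 12, 10 had negative and 2 positive log2 fold changes, from -1.68 for Bmp10 to 0.37 for Tbx5. The value for Bmp10 had an SE of 1.07, at 2.77 and 0.852 CPM, with overlap between genotypes. Myl4 and Myl7, the atrial myosin light chains, had -0.57, with overlap between genotypes, and -0.55, without overlap. Values nearer 0 were those of Pam (0.09), Nr2f2 (-0.02) and Stard10 (-0.12). The list's median log2 fold change was -0.37, and its summed level was 921 to 1008 CPM in α1r/rα2s/s and 915 to 991 CPM in α1s/sα2s/s hearts, a sum made up largely of Pam (662 and 705 CPM), which ventricles also express. No atrial marker stayed at 3 counts or fewer in every heart, and the scarcest were Bmp10 and Fgf12 (2.14 and 1.08 CPM). Of 10 markers of the sinus node and conduction system 9 were tested, 8 had negative log2 fold changes and 0 had an unadjusted p under 0.05 by edgeR, with a median of -0.12, and Isl1, a defining gene of the sinus node, had 3 counts or fewer in every heart. Of other members known from the atria, Kcnj3 and Kcnj5 had log2 fold changes of 0.07 and -0.01, and Kcna5 had 0.16. Whether the atrial share of a heart has a part in the Kcnn2 result was not tested.

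**Figure D3:**
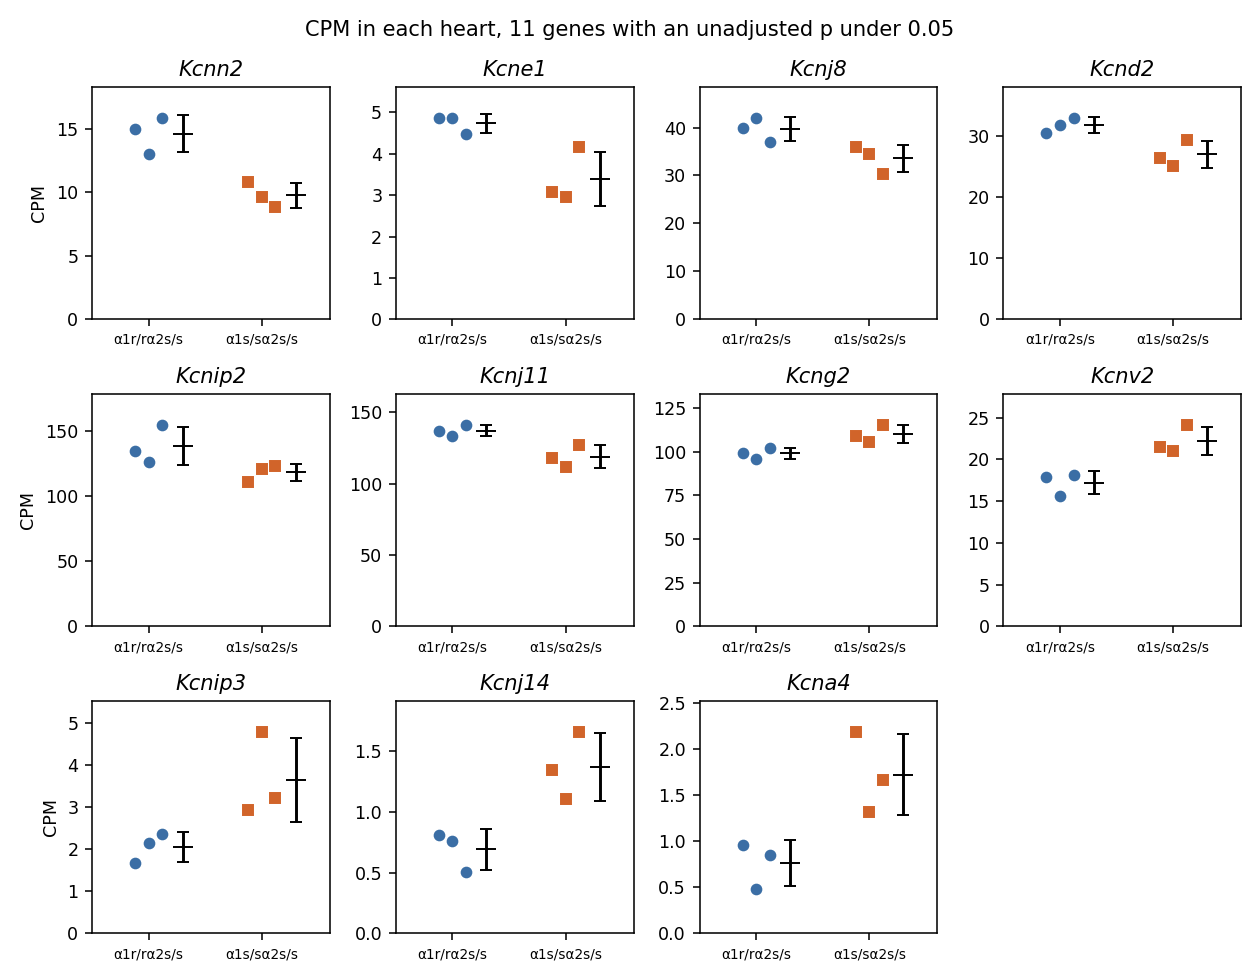
CPM in each heart (points) with mean ± SD (bars, n = 3) for 11 potassium channel genes with an unadjusted p under 0.05, α1r/rα2s/s hearts as blue circles and α1s/sα2s/s hearts as orange squares, each axis starting at 0. In all 11 panels the genotypes do not overlap, 6 genes lie lower and 5 higher in α1s/sα2s/s hearts, and among them Kcnn2 passed the adjusted test.

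The transient outward current of the mouse ventricle is carried by tetramers of Kcnd2 (Kv4.2) and Kcnd3 (Kv4.3) with KChIP2, the product of Kcnip2, and a slower form is carried by Kcna4 (Kv1.4). None of these genes passed the adjusted test. Kcnip2 had 2826, 2643 and 3086 counts in α1r/rα2s/s and 2239, 2299 and 2372 in α1s/sα2s/s hearts. All α1s/sα2s/s hearts lay below all α1r/rα2s/s hearts, at 118 ± 6.33 against 139 ± 14.8 CPM, and the log2 fold change was -0.23 (SE 0.08) with an adjusted p of 0.199 by edgeR. Kcnd2 had 636, 665 and 656 counts against 532, 477 and 565. Here too the genotypes did not overlap, at 31.7 ± 1.30 and 26.9 ± 2.15 CPM, and the log2 fold change was -0.23 (SE 0.09, adjusted p 0.256, edgeR). Kcnd3 had 406, 438 and 400 counts against 416, 372 and 457, so the genotypes overlapped, and its log2 fold change was 0.08 with a 95% interval from -0.14 to 0.30.

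Kcna4 was the member with the highest log2 fold change, though at low counts. It had 20, 10 and 17 counts in α1r/rα2s/s hearts and 44, 25 and 32 in α1s/sα2s/s hearts. Each α1s/sα2s/s heart was above each α1r/rα2s/s heart, at 1.72 ± 0.438 against 0.762 ± 0.251 CPM. The log2 fold change was 1.17 (SE 0.40, 95% interval 0.31 to 2.03), with an adjusted p of 0.184 by edgeR's quasi-likelihood test.

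The RefSeq starts of Kcnip2, Kcnd2 and Kcna4 are shown. These genes belong to the transient outward current, Kcna4 to its slower form, and they differed in the direction of their values. Each line gives the 250 bases before the start in RefSeq (GRCm38.p6), read 5′ to 3′ on the strand of the gene, at chr19:45816064-45816313 on the minus strand for Kcnip2, chr6:21215096-21215345 on the plus strand for Kcnd2 and chr2:107290339-107290588 on the plus strand for Kcna4. For Kcnd2 and Kcna4 the window ends before the counted gene model, which begins at chr6:21215503 and chr2:107290639. Bases after the RefSeq start were not found in a GENCODE transcript of either gene, so these may not be the starts of the counted models. Capitals mark the letters CACCC and their reverse complement GGGTG, a short box that Krüppel-like factors such as Klf15 can bind.
Kcnip2: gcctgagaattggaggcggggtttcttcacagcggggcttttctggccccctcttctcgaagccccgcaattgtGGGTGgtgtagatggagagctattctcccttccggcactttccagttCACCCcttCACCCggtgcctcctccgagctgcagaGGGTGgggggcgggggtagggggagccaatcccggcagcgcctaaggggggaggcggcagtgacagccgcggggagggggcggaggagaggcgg
Kcnd2: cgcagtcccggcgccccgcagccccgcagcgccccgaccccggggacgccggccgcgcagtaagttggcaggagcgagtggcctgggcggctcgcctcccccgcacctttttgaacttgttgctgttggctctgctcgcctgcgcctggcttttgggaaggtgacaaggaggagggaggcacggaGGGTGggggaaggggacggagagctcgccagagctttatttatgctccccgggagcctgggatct
Kcna4: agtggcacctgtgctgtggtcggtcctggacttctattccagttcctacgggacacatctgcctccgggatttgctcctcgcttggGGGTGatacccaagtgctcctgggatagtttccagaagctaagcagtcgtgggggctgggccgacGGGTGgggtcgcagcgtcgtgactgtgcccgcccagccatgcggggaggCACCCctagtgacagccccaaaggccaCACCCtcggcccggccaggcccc

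The box occurred 4 times before Kcnip2, 1 time before Kcnd2 and 4 times before Kcna4, counting both strands. These letters are common, since 52.0% of the 32851 promoter windows in the RefSeq table held them on either strand. Promoter windows were matched for 36 of the 51 members, and 40 of their 52 windows (76.9%) held the box, while GATAA or TTATC was in 11.5% of member windows and 22.6% of all windows. The windows shown are rich in G and C, at 66.8% for Kcnip2, 68.8% for Kcnd2 and 65.2% for Kcna4. A match is a description of the letters and says nothing of binding in these hearts. TATAAA or its complement was in 12.4% of all windows and in 0 of the 52 member windows.

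The delayed rectifiers were close between genotypes. Kcna5 (Kv1.5), the ultrarapid delayed rectifier, had 288, 531 and 522 counts against 491, 417 and 513. A single α1r/rα2s/s heart, mouse 368, was low, and the log2 fold change of 0.16 became -0.08 without it. Kcnh2, the ERG channel of the rapid delayed rectifier, had a log2 fold change of -0.09 (95% interval -0.30 to 0.12), and Kcnq1, the pore of the slow component, had -0.13 (-0.35 to 0.08). Exon bases of Kcnq1 overlap the imprinted antisense RNA Kcnq1ot1, which had 245 to 451 counts.

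Among the partners of the Kv pores, both silent subunits that met the minimum were higher in α1s/sα2s/s hearts without passing the adjusted test. Kcnv2, which lowers and shifts Kv2 currents, had 376, 328 and 360 counts against 433, 400 and 466. Every α1s/sα2s/s heart was above every α1r/rα2s/s heart, at 22.2 ± 1.69 against 17.2 ± 1.36 CPM, and the log2 fold change was 0.37 (SE 0.11, 95% interval 0.14 to 0.59) with an adjusted p of 0.111 by edgeR. Kcng2 had 2078, 1999 and 2032 counts against 2197, 2009 and 2226. The genotypes did not overlap in CPM, at 110 ± 4.96 against 98.9 ± 3.31, and the log2 fold change was 0.15 (adjusted p 0.318, edgeR). Kcng2 shares 272 exon bases with D330025C20Rik on the other strand, which had 98 to 165 counts.

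Among the auxiliary subunits, Kcne1 encodes minK, the partner of Kcnq1 in the slow delayed rectifier. It had 102, 102 and 89 counts in α1r/rα2s/s and 62, 56 and 80 in α1s/sα2s/s hearts. No α1s/sα2s/s heart reached the lowest α1r/rα2s/s heart, and the log2 fold change was -0.48 (SE 0.22, adjusted p 0.331, edgeR). Kcnip3, the KChIP3 calcium-binding protein also known as DREAM, was higher instead, with 35, 45 and 47 counts against 59, 91 and 62. Mouse 380 was the highest of these hearts and the genotypes did not overlap, with a log2 fold change of 0.82 (SE 0.28, adjusted p 0.184, edgeR). Kcnab1, the Kvβ1 subunit, had 47, 40 and 46 counts against 33, 19 and 35, with no overlap but with a 95% interval of the log2 fold change from -1.24 to 0.17. Kcne2, which is known as a partner of ERG, had 1, 1 and 0 counts and then 0 in every α1s/sα2s/s heart.

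The ATP-sensitive channels pair a Kir6 pore with a sulfonylurea receptor and open when ATP falls. Kcnj11 (Kir6.2), the pore of heart muscle, had 2866, 2792 and 2816 counts in α1r/rα2s/s and 2375, 2121 and 2457 in α1s/sα2s/s hearts. All α1s/sα2s/s hearts were below all α1r/rα2s/s hearts, at 119 ± 7.98 against 137 ± 4.06 CPM, a log2 fold change of -0.21 (SE 0.07, 95% interval -0.36 to -0.05) with an adjusted p of 0.184 by edgeR. Kcnj8 (Kir6.1), the pore of pericytes and vascular smooth muscle, had 837, 881 and 738 counts against 723, 654 and 586. The genotypes again did not overlap, at 39.7 ± 2.51 and 33.6 ± 2.85 CPM, and the log2 fold change was -0.24 (adjusted p 0.225, edgeR). The receptor genes overlapped between genotypes and did not pass the test, with log2 fold changes of -0.12 for Abcc9 (SUR2) and -0.18 for Abcc8 (SUR1). Per kilobase, Kcnj11 was 2.40 ± 0.226 times Kcnj8 in α1r/rα2s/s and 2.48 ± 0.372 times in α1s/sα2s/s hearts, ranges that overlapped.

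Pericyte markers were read beside Kcnj8, although Kcnj8 and Abcc9 are themselves 2 of the 8 in that list. Of the 8, 7 had negative log2 fold changes, with a median of -0.21 over the list. By edgeR 4 of the 7 had an unadjusted p under 0.05, 50% of the list against 7.27% of all genes lower. This list too was chosen with earlier results of these data known. At an adjusted p of 0.05, 0 were called by edgeR and 1 by DESeq2. Kcnj8 is itself counted among the 7 and the 4, and Abcc9 among the 7, so these counts are not independent of Kcnj8. The list's summed level was 1351 to 1427 CPM in α1r/rα2s/s and 1217 to 1378 CPM in α1s/sα2s/s hearts, with overlap and with no marker near 0. That sum is made up largely of Rgs5 (750 and 749 CPM, log2 fold change -0.001) and Abcc9 (421 and 387 CPM). The lowest log2 fold changes in the list were those of Vtn (-0.55) and Cspg4 (-0.46), both without overlap between genotypes. Pdgfrb had -0.33, Notch3 -0.18 and Higd1b 0.02, all with overlap. Cardiomyocyte markers, beside Kcnj11, had a median log2 fold change of 0.08 with 8 of 10 above 0 and 0 at an unadjusted p under 0.05. Whether the number of pericytes has a part in the Kcnj8 values was not tested.

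Inward rectifiers of the Kir2 family hold the resting potential of heart muscle. Kcnj2 (Kir2.1) had 1550, 1154 and 1115 counts against 1531, 1180 and 1215, with 1 high heart in each genotype and a log2 fold change of 0.12 (95% interval -0.12 to 0.36). Kcnj12 (Kir2.2) had 402, 355 and 388 counts against 403, 393 and 418, which did not overlap after scaling, and a log2 fold change of 0.16 (-0.05 to 0.38). The scarce Kcnj14 (Kir2.4) had 17, 16 and 10 counts against 27, 21 and 32, with no overlap and a log2 fold change of 0.97 (SE 0.41, adjusted p 0.290, edgeR). Kcnj4 (Kir2.3), with the lowest summed count of all 51 members at 57, had 0.73 with an interval from -0.47 to 1.93. All 4 Kir2 genes thus had positive values and 0 passed the adjusted test, by edgeR or by DESeq2 where the latter gave an adjusted p.

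The acetylcholine-activated current of atria and pacemaker cells is carried by Kcnj3 (Kir3.1) and Kcnj5 (Kir3.4). Kcnj3 had 1271, 1148 and 1253 counts against 1438, 1053 and 1167, and Kcnj5 had 1563, 1436 and 1534 against 1440, 1457 and 1348. Both overlapped between genotypes, and for Kcnj5 the 95% interval of the log2 fold change was narrow, from -0.17 to 0.14 around -0.01.

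The most abundant member was also among the closest between genotypes. Kcnk3 had 4954, 4901 and 4997 counts in α1r/rα2s/s and 4710, 4454 and 4752 in α1s/sα2s/s hearts, which after scaling overlapped at 241 ± 9.16 and 238 ± 7.16 CPM. The log2 fold change was -0.01 with a 95% interval from -0.16 to 0.13. Its exons overlap Gm9899 on the other strand, which had 330 to 453 counts. Kcnk2, the stretch-sensitive TREK1 channel, had 76, 90 and 47 counts against 59, 62 and 49 and a log2 fold change of -0.24 with an interval from -0.81 to 0.34. None of the 5 K2P genes that met the minimum passed the adjusted test by edgeR, and 0 had an unadjusted p under 0.05.

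Ratios between subunits that form channels together, or carry related currents, were read in each heart and are given as descriptions, for 9 pairs. Kcnip2 over Kcnd2, per kilobase, was 6.48 ± 0.548 in α1r/rα2s/s and 6.53 ± 0.527 in α1s/sα2s/s hearts, ranges that overlapped. Kcnd2 over Kcnd3 was 2.93 ± 0.114 and 2.36 ± 0.0476, with every α1s/sα2s/s heart lower. Kcna4 over Kcnd2 was 0.0257 ± 0.0089 and 0.0681 ± 0.0175, with every α1s/sα2s/s heart higher, and stayed a small fraction in both genotypes. That lack of overlap follows from the values of Kcna4 and Kcnd2 given above, which did not overlap and differed in opposite directions. Kcnq1 over Kcne1 was 4.52 ± 0.692 and 5.85 ± 0.954 and overlapped, as did Kcnj2 over Kcnj12, Kcnj5 over Kcnj3 and Kcnq1 over Kcnh2.

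**Figure D4:**
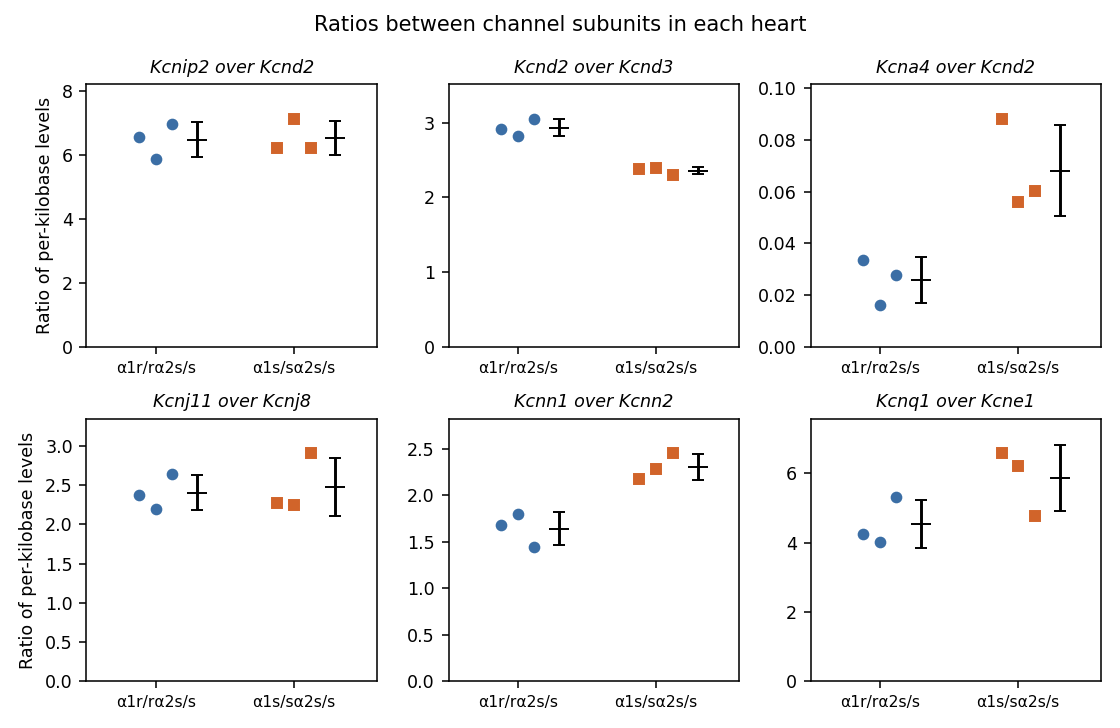
Ratio of the levels per kilobase of 2 potassium channel genes in each heart, for 6 of the 9 pairs, with mean ± SD (bars, n = 3), α1r/rα2s/s hearts as blue circles and α1s/sα2s/s hearts as orange squares. Kcnip2 over Kcnd2, Kcnj11 over Kcnj8 and Kcnq1 over Kcne1 overlap between genotypes, and the other 3 pairs do not.

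By class, the silent Kv subunits made up 12.2 ± 0.122% of the summed level per kilobase of the 51 genes in α1r/rα2s/s and 14.2 ± 0.340% in α1s/sα2s/s hearts, without overlap, and nearly all of that was Kcng2. The auxiliary Kv subunits, mostly Kcnip2, made up 14.9 ± 0.813% and 13.3 ± 0.695%, also without overlap and in the other direction. The Kir class (33.2 and 32.4%), the K2P class (21.2 and 21.5%) and the Kv pores (16.1 and 16.3%) overlapped. These shares sum to the same whole, so one cannot move without the others.

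A list of 24 genes behind the transient outward, delayed rectifier, inward rectifier, ATP-sensitive, acetylcholine-activated, leak and calcium-activated currents of the heart held 23 tested members. The list was drawn up with earlier results of these data known, so its counts are a description. Of the 23, 8 had positive and 15 negative log2 fold changes, and 1 (4.35%) was called by edgeR against 1.44% of all genes. At an unadjusted p under 0.05 there were 7 (30.4% against 14.5% of all genes), of which 6 were lower (Kcnn2, Kcnj11, Kcnip2, Kcnj8, Kcnd2 and Kcne1, 26.1% against 7.27%) and Kcna4 was higher, while over all 51 members the split was 6 and 6. The median was -0.09 against -0.01 for all genes tested.

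Proteins that partner, anchor or regulate these channels were taken from a list of 34 genes, of which 30 were tested. This list too was chosen with earlier results of these data known, so its counts are a description. Their log2 fold changes were positive for 16 and negative for 14, with a median of 0.03, and 2 (6.67% against 1.44% of all genes) passed edgeR's test, both lower, while DESeq2 called 3, of which 1 was higher. Akap5, an anchor that brings protein kinase A and calcineurin to channels, had 296, 308 and 288 counts against 194, 169 and 121. It fell from 14.4 ± 0.292 to 8.27 ± 1.76 CPM with no overlap, a log2 fold change of -0.80 (SE 0.15, adjusted p 0.0198, edgeR). Leaving out mouse 368 or mouse 369 raised its adjusted p by edgeR to 0.0569 and 0.0567. Fhl2, a LIM-domain protein that binds minK, fell from 1290 ± 85.4 to 1013 ± 93.6 CPM, and its log2 fold change was -0.35 (SE 0.08, adjusted p 0.0493, edgeR). In edgeR's fits without 1 heart its adjusted p was 0.0972 without mouse 368, 0.0873 without 369, 0.0972 without 370, 0.183 without 379 and 0.175 without 380, and 0.0252 without 381. With RLE factors and all 6 hearts it was 0.0542 by edgeR.

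Of the other listed partners, Adora1, the adenosine receptor that opens Kcnj3 and Kcnj5 channels through G proteins, had 174, 209 and 196 counts against 256, 280 and 259. The genotypes did not overlap, with a log2 fold change of 0.54 (SE 0.13, adjusted p 0.0589, edgeR). The adjusted p was 0.0355 with DESeq2, 0.0142 in edgeR without a filter and 0.0468 in edgeR with a robust prior, and over all alternatives it ranged from 0.0142 to 0.221. Klf15, a factor known to drive Kcnip2 in mouse heart, had 681, 633 and 863 counts against 811, 925 and 948, overlapping after scaling, with a log2 fold change of 0.38 (adjusted p 0.155, edgeR) and thus opposite in sign to Kcnip2. Irx3, a homeobox factor of the conduction system, had a log2 fold change of 0.26, and the anchor Ank2 had -0.16, neither past the adjusted test. The muscarinic receptor Chrm2 had -0.02.

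The 22 members outside the rule by which genes were chosen for naming had log2 fold changes from -0.73 to 0.85 and levels from 0.0682 to 2.62 CPM per kilobase. Their smallest adjusted p was 0.471 by edgeR's quasi-likelihood test. The most abundant of them was Kcna7 (Kv1.7), with 119, 135 and 73 counts against 114, 119 and 127, and the scarcest was Kcnq5 (Kv7.5), with 14, 6 and 9 counts against 11, 0 and 23. Both overlapped between genotypes. Kcnt1, a sodium-activated channel, had 6, 9 and 22 counts against 21, 18 and 25 and the upper log2 fold change of 0.85, with a 95% interval from -0.24 to 1.95. Kcnk5, the alkaline-activated TASK2 channel, had 23, 21 and 14 counts against 15, 7 and 11 and the lower one of -0.73, with an interval from -1.73 to 0.27.

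Among the 43 genes below the minimum, 12 had 0 counts in every heart, and the highest count in any heart was 19. A count of 0 allows up to 3 counts, which is 0.147 to 0.155 CPM of the unscaled totals, so a gene at 0 may still be present below that level. The silent subunits were the class most often below the count minimum, with 2 of 10 meeting the minimum, against 19 of 30 Kv pores, 9 of 13 auxiliary subunits, 9 of 15 Kir, 5 of 14 K2P, 6 of 8 KCa and KNa and 1 of 4 BK auxiliary genes. Kcnj6 and Kcnj9, the G-protein-gated subunits best known from neurons, had 0 counts and at most 3 counts.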

How the data were processed

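RNA was sequenced from 3 α1r/rα2s/s and 3 α1s/sα2s/s whole hearts, grouped by the genotype in the labels. The authors deposited counts per gene without normalization. The submitters' processing notes name fastp, STAR, featureCounts and mm10, without versions, and the strand setting is not given in the sources used here. The authors' own DESeq2 comparison table (mean signal, log2 fold change, error, statistic and p-values) was not used.

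Counts were analysed in R 4.3.3 with edgeR 4.0.16: TMM factors, filterByExpr (minimum count 10, minimum total 15), the quasi-likelihood test over 14866 genes and Benjamini-Hochberg adjustment with a threshold of 0.05. The common biological coefficient of variation was 11.1%. Standard errors are the size of the log2 fold change divided by the root of the test statistic. The test was also run on simulated counts, with an outcome not reported here. The changes set there were larger than those of the members and partners called, so that run does not bear on changes of their size. Levels per kilobase divide CPM by the gene length in the count table. All 51 members have identical coordinates in GENCODE M21 (GRCm38). DESeq2 1.42.0, other scalings and filters, a robust prior and fits without each heart were alternatives.

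Named were members with an adjusted p, then an unadjusted p under 0.05, those of the classical currents, the 5 most abundant, those without overlap whose log2 fold change was more than 0.3 from 0, and partners with an unadjusted p under 0.05. A few others are named as examples of a range, and some genes that meet the rule are not reported here. The members and lists were chosen with earlier results of these data known. A planned protein motif search was not run, since no protein table was used here.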

Additional observations from a re-analysis of the deposited data

How the results depend on the processing

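The called member, Kcnn2, was called under DESeq2 (adjusted p 0.0203), RLE and upper-quartile factors, no filter, both fixed count minimums, without mitochondrially encoded and globin genes, and with a robust prior. Without any 1 heart the number of members called, in all and lower, was 0 to 0 by edgeR. The number called higher was 0 under every alternative run with edgeR or DESeq2, with 6 at an unadjusted p under 0.05 in edgeR as reported. The median log2 fold change of the members stayed between -0.03 and 0.06. Over all genes 214 were called, against 409 with DESeq2, 618 without a filter and 80 to 158 without 1 heart. Partners called went from 2 to 1 with RLE factors (Fhl2 lost), 4 without a filter (Adora1 and Klf15 added) and 0 to 2 without 1 heart. The log2 fold change of Kcnma1 was -0.00329 with upper-quartile factors. Without 1 heart, the sign also turned for Kcnma1 (-1.85 to 0.53), Kcna5 (-0.0825 to 0.318), Kcnd3 (-0.000426 to 0.14), Kcnj3 (-0.0347 to 0.154), Kcnj5 (-0.0582 to 0.0257) and Kcnk3 (-0.0385 to 0.0219). The cause was not tested. Over the named genes and alternatives, 462 values kept direction and side of the threshold, 14 fell short of it, 5 newly passed it and 11 changed sign. DESeq2 gave no adjusted p for Kcna4, Kcnip3, Kcnj14, Kcne1, Kcnn3, Kcnma1, Kcnmb1, Kcnab1, Kcnk2 and Kcnj4, nor for many unnamed members. It could therefore call none of these. Depth limits the members under 1 CPM per kilobase, whose intervals are wide. No paired analysis was possible because the labels give no replicate numbers that tie hearts across genotypes.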

Other observations

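Rows named after potassium channels but annotated as antisense RNA lie outside the protein-coding genes, and 5 such rows were listed. Kcnq1ot1, the imprinted RNA that silences genes on the paternal chromosome from within Kcnq1 (chr7:143203458-143296549, GRCm38, minus strand), had 342, 245 and 451 counts in α1r/rα2s/s and 274, 287 and 320 in α1s/sα2s/s hearts, with overlapping values. Kcnd3os had 15, 21 and 9 counts against 10, 10 and 9, and Kcnmb4os1, Kcnmb4os2 and Kcnab3os had at most 2 counts in any heart.

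Pacemaker channels of the Hcn family, which are relatives of potassium channels that open on hyperpolarization, were present and overlapped between genotypes. Hcn2 had 473, 602 and 537 counts against 538, 550 and 497, and Hcn4 had 193, 194 and 204 against 234, 210 and 173. Their log2 fold changes were 0.06 and 0.14. The G protein genes upstream of Kcnj3 and Kcnj5 overlapped too, with log2 fold changes of -0.04 for Gnai2 and 0.15 for Gnao1.

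Markers of other cells gave the following values in α1r/rα2s/s against α1s/sα2s/s hearts. The 6 adipocyte markers summed to 340 to 427 CPM against 472 to 532 CPM, without overlap, and 1 of them (Fabp4) was called. The sum is nearly all Fabp4 (379.9 and 497 CPM), which capillary endothelium of the heart also expresses, and Cidec, Plin1 and Adipoq were each under 1 CPM. The 9 macrophage and lymphocyte markers summed to 125 to 198 against 103 to 128 CPM, and all 7 tested had negative log2 fold changes. Endothelial markers summed to 1183 to 1389 against 1051 to 1256 CPM, and fibroblast markers to 1184 to 1392 against 1064 to 1230 CPM. Skeletal muscle markers summed to 1067 to 1266 against 1251 to 1303 CPM. That sum is nearly all Ckm (953 and 1016 CPM) and Acta1 (182 and 261 CPM). Mylpf (1.06 and 0.628 CPM) and Tnnt3 (0.358 and 0.613 CPM) were scarce, and Myh4 had 3 counts or fewer in every heart. Markers of glia and neurons summed to 22.0 to 29.8 against 28.3 to 29.9 CPM, with Th at 3 counts or fewer in every heart, and erythrocyte markers to 536 to 1272 against 401 to 3187 CPM. Their part in the values of the potassium channel genes was not tested.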
